A study of Homo sapiens with 4 samples.

Results

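The genes described here encode the protein complexes of oxidative phosphorylation in the inner mitochondrial membrane, measured in macrophages made from THP-1, an established human monocytic leukemia line. Members were all probes whose single annotated symbol carried the family letters of the subunits of complexes I to V (NDUFA, NDUFB, NDUFC, NDUFS or NDUFV with a number, UQCR, COX4 to COX8, ATP5) or named SDHA, SDHB, SDHC, SDHD, CYC1 or CYCS. The letters matched 115 probes, 3 of them for pseudogenes (ATP5F1EP2 and UQCRBP1) that were left out. The remaining 112 probes stood for 84 of the 20045 genes named on the table, namely 35 of complex I, 3 of complex II, 9 of complex III, 16 of complex IV, 17 of complex V and CYCS. The letters also took in 3 genes that encode no subunit: COX7A2L, a supercomplex factor, ATP5IF1, an inhibitor of complex V, and NDUFB2-AS1, an antisense RNA. The rule itself used no measured value, but it was chosen with earlier results of these data known.

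Complexes I and II feed electrons from NADH and succinate to coenzyme Q, complex III passes them to cytochrome c, and complex IV gives them to oxygen. The protons pumped by complexes I, III and IV drive the rotary ATP synthase, complex V. In macrophages, inflammatory activation by LPS and interferon-gamma is known for a turn towards glycolysis, and activation by interleukin-4 for sustained mitochondrial respiration.

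The study hybridised 4 arrays, 1 per group. M0 were the unpolarised THP-1 macrophages, M1 had received interferon-gamma with lipopolysaccharide (LPS), M2a interleukin-4 and M2c interleukin-10. All 4 groups came from the same line grown in RPMI 1640 with fetal bovine serum. Neither the doses and durations of these treatments nor the differentiation agent is stated in the labels.

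With 1 array per group no difference has a replicate check, no test was possible, and every fold compares 2 arrays rather than 2 conditions. Values are log2 intensities after background correction and quantile normalization, and a gene is read from its brightest probe. A probe was called detected at a detection p-value under 0.01, which is the share of negative-control beads that read as high. A gene was called higher or lower where it differed by at least 2-fold (1 log2 unit) and was detected on at least 1 of the 2 arrays.

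The arrays detected 12937 (M1) to 14818 (M0) of 47228 probes, and the lower count on M1 stands beside a lower median raw intensity of 102.9 against 110.4 to 110.9 on the other arrays. The median of all 10395 detected genes lay at -0.17 for M1 minus M0, and at 0.12 when the arrays were instead scaled to a common median of the probes detected on all 4. That shift is larger than many of the differences below, so M1 values are also given relative to it. All 9 macrophage markers with a probe were detected on all 4 arrays, as were CSF3R, ELANE and FCGR3B of the 4 neutrophil markers. None of the epithelial and erythroid markers with a probe was detected on any array. CD2 (M1), CD79A (M0) and DCN (M0 and M1) were the only detected genes of the T cell, B cell and fibroblast lists. Less RNA of a gene per cell and fewer cells that express it cannot be told apart in bulk RNA, and the arrays report shares of the labelled RNA, not amounts per cell.

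Of the 84 member genes, 75 (89.3%) were detected on at least 1 array, against 51.9% of all genes, and 69 were detected on all 4. The M0, M1, M2a and M2c arrays detected 72, 71, 73 and 69 of them. Among the 75, 55 lay among the brightest 2079 of the detected genes by mean signal. A probe's brightness also depends on the probe, so these levels do not rank the genes by transcript abundance. The dimmest and brightest detected genes were NDUFA5 (5.10, 4.36, 5.35 and 4.74 on M0, M1, M2a and M2c) and NDUFS8 (11.83, 11.26, 12.32 and 11.95) in complex I. In complex III they were UQCR11 (5.77, 6.37, 6.48 and 5.59) and UQCRHL, and in complex IV COX6B1 (9.52, 9.57, 10.18 and 9.40) and COX4I1. In complex V they were ATP5MK (5.10, 5.78, 5.35 and 4.92) and ATP5F1B, the catalytic beta subunit (13.95, 13.59, 14.18 and 13.96). M2a gave the highest reading of each gene written out here except ATP5MK, for which M1 did.

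The 9 genes not detected on any array included all 6 tissue-restricted isoforms of complex IV with a probe: COX4I2, COX6A2, COX6B2, COX7A1, COX7B2 and COX8C. Their ubiquitous counterparts COX4I1, COX6A1, COX6B1, COX7A2, COX7B and COX8A were detected on all 4 arrays. The other undetected members were NDUFB4, NDUFS6 and NDUFB2-AS1. SDHB, UQCRFS1 and the subunits encoded by mitochondrial DNA are not analysed here.

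The members' most frequent pattern over the 4 arrays was a highest value on M2a and a lowest on M1. M2a was the highest array for 61 of the 75 detected members (81.3%), against 26.9% of all detected genes, and M1 was the lowest for 58 (77.3%), against 45.8%. Both held for 50 members (66.7%), against 17.0% of all detected genes. Scaled to a common median, M2a remained the highest array for 60 members (80%, against 25.4% of all detected genes). M1 was then the lowest for 26 (34.7%, against 32.2%), a share near that of all detected genes. Both held for 23 (30.7%, against 13.0%). The position of M2a at the top was thus nearly the same count under both scalings, and that of M1 at the bottom was not.

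**Figure D1:**
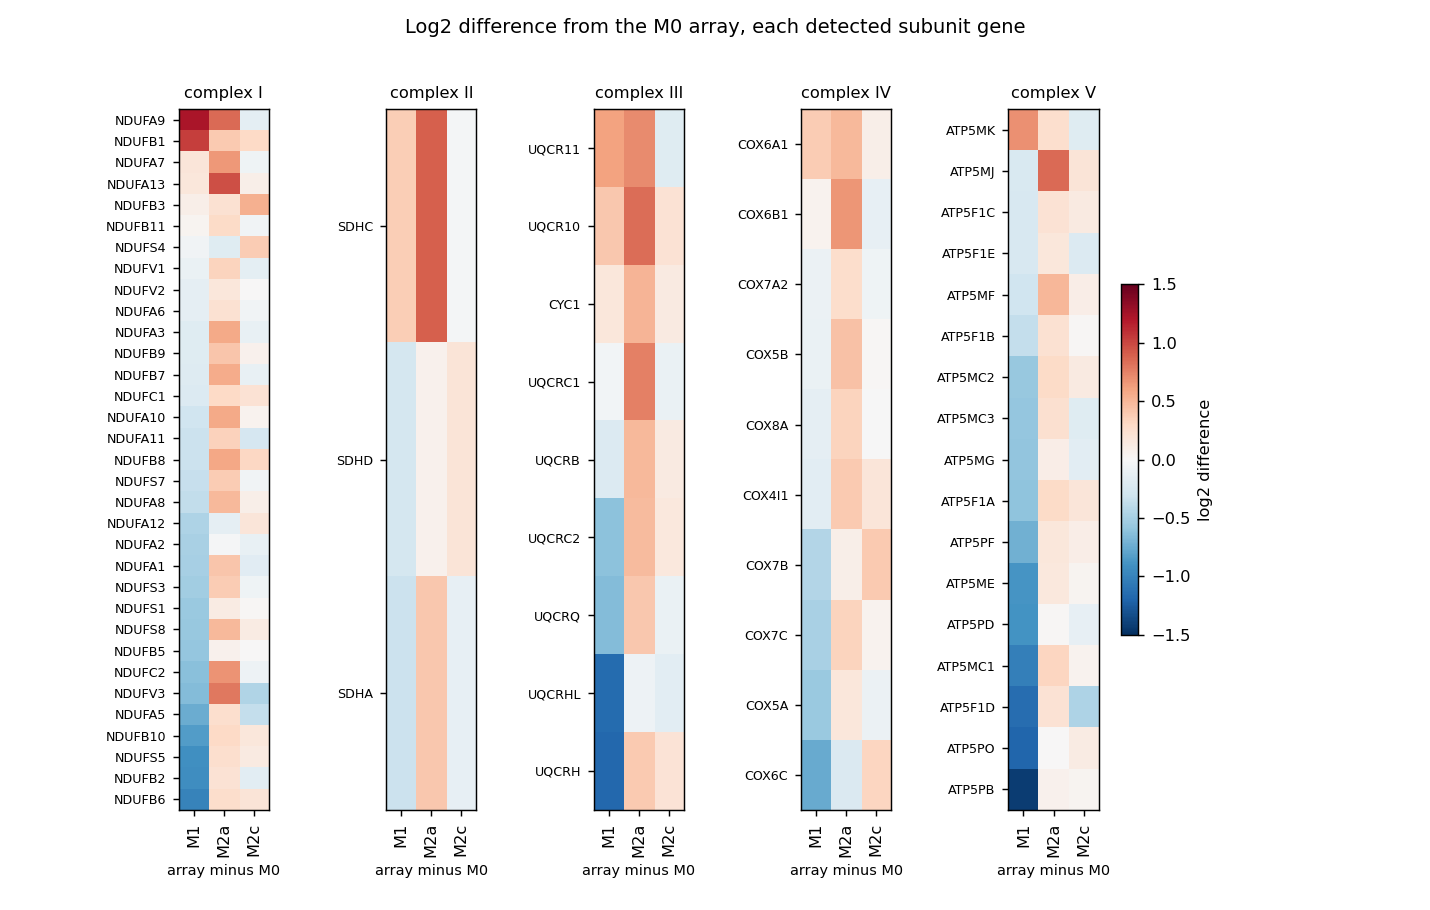
Log2 difference of the M1, M2a and M2c arrays from the M0 array (colour, blue lower and red higher) for each detected subunit gene, with 1 panel per complex and genes ordered by M1 minus M0. The M2a columns are mostly red, the M1 columns mostly blue and the M2c columns pale. With arrays scaled to a common median 40 of 75 members, rather than 14, lie above 0 on M1. For all 10395 detected genes the same counts are 5782, rather than 4449.

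Each complex showed the M2a part of this pattern. M2a was the highest array for 27 of 33 detected genes of complex I, 2 of 3 of complex II, 8 of 9 of complex III, 8 of 10 of complex IV and 15 of 17 of complex V. M1 was the lowest array for 16 of 17 genes of complex V and for 5 of 9 of complex III, the highest and the lowest shares among the complexes. With common-median scaling these 2 counts became 11 of 17 and 4 of 9, where M1 was the lowest array for 32.2% of all detected genes. Complexes I, II and IV then stood at 8 of 33, 1 of 3 and 2 of 10. Complex V kept the highest share, and complex III no longer had the lowest.

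In M1 macrophages the genes of complex V had the lowest median relative to M0 when read from the brightest probe, with complex III as low when read from the mean of detected probes, and single genes of complexes I and III moved past 2-fold. Of 74 members that could be called, 7 were lower: ATP5PB, ATP5PO, ATP5F1D and ATP5MC1 of complex V, UQCRH and UQCRHL of complex III, and NDUFB6 of complex I. NDUFA9 and NDUFB1, both of complex I, were higher. Over all 9986 genes that could be called, 19.0% were lower and 15% higher, and both shares of the members lay below these. At a 1.5-fold line, chosen after the values were seen, 21 members were lower and 4 higher, against 34.1% and 23.8% of all genes. The median of the 75 detected members was -0.35, with 14 above 0. With common-median scaling that median turned to 0.02, none of the 7 was lower by 2-fold, the 7 kept their negative sign, and 3 members were higher. Of all 10395 detected genes 1236 were then lower and 1960 higher.

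The peripheral stalk of complex V, the stator that holds the F1 head against rotation, held the lowest values. ATP5PB, its b subunit, read 12.38 on M0, 10.96 on M1, 12.44 on M2a and 12.43 on M2c. ATP5PO, the subunit that joins the stalk to the head, read 11.86, 10.67, 11.86 and 11.99. M1 stood alone as the low array for both genes, while the other 3 arrays lay close together. ATP5PB was 2.69-fold lower on M1 than on M0 (log2 -1.43, and -1.41 to -0.89 across the alternative processings), and its second probe gave -1.33. ATP5PO was 2.29-fold lower (log2 -1.19). The other stalk genes, ATP5PD and ATP5PF, stood at -0.90 and -0.72, short of the 2-fold line, and the other probes of ATP5PF gave -0.77 and 0.15, the latter from the dimmest of the 3. The median of the 4 stalk genes was -1.05, and with common-median scaling -0.52, in both cases below that of the F1 part, at -0.36 and 0.05. These groups within the complexes were drawn up after the values were known.

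The F1 part, whose head makes ATP, was read from 5 genes. ATP5F1A and ATP5F1B, the alpha and beta subunits, lay at -0.61 and -0.36, and both turned positive, to 0.05 and 0.51, with common-median scaling. ATP5F1D, the delta subunit of the central stalk, read 10.75, 9.61, 10.96 and 10.28 and was 2.20-fold lower on M1. Its second and dimmer probe differed by only -0.15, so the fold rests on 1 of 2 probes. In the membrane part, ATP5ME, ATP5MG and ATP5MF lay at -0.89, -0.60 and -0.30. ATP5MK alone of complex V lay above 0. It was detected on M1 and M2a and not on M0, so it has only a bound, at least 1.43-fold higher on M1.

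The c-ring, the rotor in the membrane, is built from 1 mature protein encoded by ATP5MC1, ATP5MC2 and ATP5MC3. The probe that stands for ATP5MC1 read 10.64, 9.61, 10.96 and 10.69 and was 2.03-fold lower on M1. A second probe, for another transcript of the gene, had raw intensities of 150.2 on M0, 281.2 on M1, 172.2 on M2a and 186.2 on M2c. M1 was the highest array for that probe, which gave a log2 difference of 2.38 where the first gave -1.02. The direction for ATP5MC1 therefore depends on the probe. ATP5MC2 and ATP5MC3 lay at -0.57 and -0.58.

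**Figure D2:**
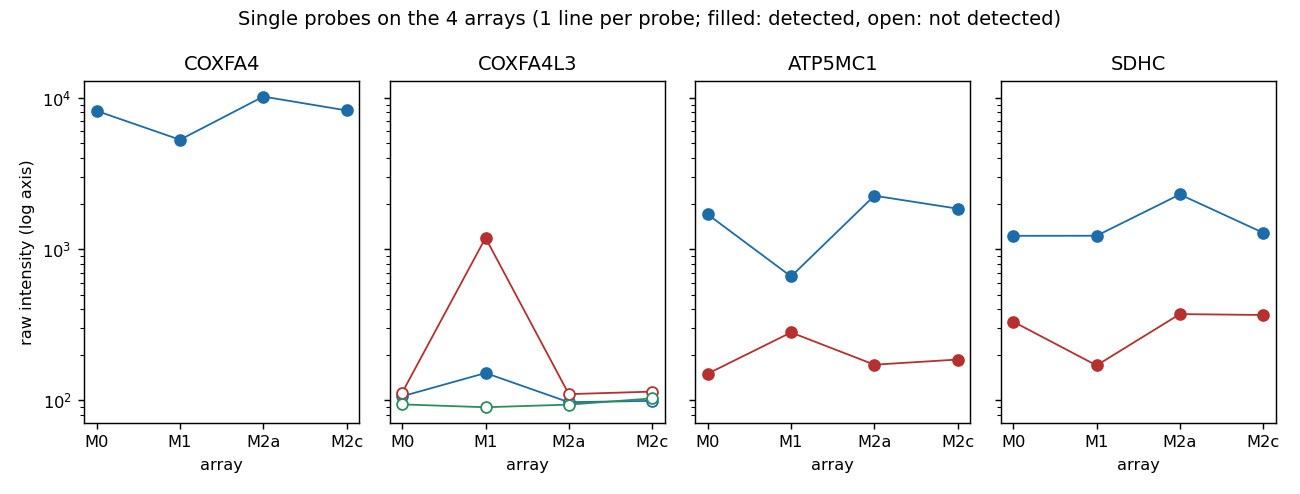
Raw intensity (log axis) of every probe of COXFA4, COXFA4L3, ATP5MC1 and SDHC on the 4 arrays, 1 line per probe, filled where detected and open where not. The probes of ATP5MC1 part on the M1 array (659.1 and 281.2), and 1 COXFA4L3 probe reads 1186.0 on M1 against 110.0 to 114.3 elsewhere.

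Promoter sequence is shown for 4 members on which the comparisons turn: ATP5PB and ATP5PO, with the lowest values on M1 within complex V, NDUFA9, the highest on M1, and NDUFA13, the highest on M2a. Each is the 250 bases before the annotated start in RefSeq, build GRCh38.p14, written 5′ to 3′ on the strand of the gene. They lie at chr1:111449214-111449463 (plus strand), chr21:33915805-33916054 (minus strand), chr12:4648864-4649113 (plus strand) and chr19:19515975-19516224 (plus strand). Capitals mark letters found on either strand: those of NRF1 (GCGCANGCG) and, upstream of them, of part of an interferon-stimulated response element (GAAANNGAA) in ATP5PO and NDUFA9, and those of ETS factors such as GABPA (CCGGAAG) in NDUFA13.
ATP5PB: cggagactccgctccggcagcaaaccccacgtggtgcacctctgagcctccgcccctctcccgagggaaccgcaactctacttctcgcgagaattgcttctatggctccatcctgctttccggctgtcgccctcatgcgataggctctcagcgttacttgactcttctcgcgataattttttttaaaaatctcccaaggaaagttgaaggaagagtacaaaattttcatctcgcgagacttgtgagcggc
ATP5PO: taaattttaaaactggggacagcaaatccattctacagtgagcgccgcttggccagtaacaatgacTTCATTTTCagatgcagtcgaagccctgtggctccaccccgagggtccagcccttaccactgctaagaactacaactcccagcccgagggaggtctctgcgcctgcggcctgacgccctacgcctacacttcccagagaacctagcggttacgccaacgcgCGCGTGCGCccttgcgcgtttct
NDUFA9: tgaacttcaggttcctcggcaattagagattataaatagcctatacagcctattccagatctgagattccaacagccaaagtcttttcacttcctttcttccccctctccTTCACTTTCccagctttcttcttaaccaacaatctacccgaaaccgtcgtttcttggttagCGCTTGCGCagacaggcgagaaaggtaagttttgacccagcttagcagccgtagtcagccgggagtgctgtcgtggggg
NDUFA13: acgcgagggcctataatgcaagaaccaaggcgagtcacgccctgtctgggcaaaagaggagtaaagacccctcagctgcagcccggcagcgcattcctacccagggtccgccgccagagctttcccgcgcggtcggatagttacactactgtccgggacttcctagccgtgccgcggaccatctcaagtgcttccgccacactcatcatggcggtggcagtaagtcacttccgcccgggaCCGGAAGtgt

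NRF1 and GABPA are transcription factors known to bind promoters of nuclear genes for respiratory subunits. Of the 69 members with a promoter in the table, 19 (27.5%) held the NRF1 letters, against 9.72% of 15842 promoters of protein-coding genes, and 16 (23.2%) held the ETS letters, against 11.8%. The partial letters of an interferon-stimulated response element were in 5 (7.25%, against 6.09%), those of NF-kappaB (GGGANTTTC) in 1 (against 1.08%) and those of YY1 (ATGGCGGC) in 2 (against 1.48%). The promoter of ATP5PB held none of these letters in this window. ATP5PO and NDUFA9, at opposite ends on M1, held the same 2 sets of letters. The NRF1, NF-kappaB and interferon-element letters were first searched in a form 1 letter longer and were shortened after those counts had been seen. The longer forms were in 14 members for NRF1 (20.3%, against 7.65% of coding promoters), in 1 for NF-kappaB (against 0.499%) and in 0 for the interferon element (against 2.72%). ATP5PO and NDUFA9 held the longer NRF1 form, so the interferon-element capitals in their promoters rest on the shorter letters alone. Detected members with the NRF1 letters had a median of -0.29 on M1 and 0.36 on M2a, and those without -0.41 and 0.31. For the ETS letters the medians were -0.23 and 0.40 with them and -0.34 and 0.29 without. A match is a description of the letters and not a bound site.

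In complex I the M1 values spanned the widest range of any complex, from -1.01 to 1.23. NDUFA9, an accessory subunit at the junction of the matrix and membrane arms, read 8.44 on M0, 9.67 on M1, 9.28 on M2a and 8.29 on M2c. Both M1 and M2a were high, M1 by 2.34-fold over M0 (1.05 to 1.44 log2 across alternatives) and M2a by 0.85 log2 units. NDUFB1 was detected on M1 alone, so it has only a bound there: it was at least 1.28-fold higher than on M0, and its fitted difference of 1.04 is no measure of size. NDUFB6, of the distal membrane arm, read 8.93, 7.92, 9.20 and 9.12, was 2.01-fold lower on M1, and gave -0.96 with its second probe. Across the alternative processings its difference was -0.94 to -0.80, short of the 2-fold line.

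The hydrophilic arm holds the flavin and the iron-sulfur clusters. Its measured core subunits all lay below 0 on M1, from -0.57 in NDUFS8 to -0.10 in NDUFV1. Their median was -0.44 over 6 genes. That median turned to 0.06 with common-median scaling. The accessory subunits had medians of -0.32 (17 genes) and, in the distal membrane arm, -0.26 (10 genes). Relative to the median of all detected genes the complex lay at -0.15, and at -0.06 with common-median scaling.

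Complex II, which also belongs to the TCA cycle, was read from 3 genes, none past 2-fold on M1. SDHA, the flavoprotein, read 9.27, 8.94, 9.67 and 9.14. SDHC and SDHD, the membrane anchors, read 10.10, 10.46, 10.99 and 10.07, and 10.24, 9.97, 10.30 and 10.44. M2a was the highest array for SDHA and SDHC, and M2c for SDHD. The 2 probes of SDHC gave 0.36 and -0.72 on M1, so M1 has no single direction for it, whereas on M2a they gave 0.89 and 0.33.

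In complex III, UQCRH, the hinge protein that holds cytochrome c1 and cytochrome c together, read 11.17, 9.99, 11.56 and 11.37. UQCRHL, a retrotransposed copy of it, read 13.84, 12.68, 13.76 and 13.68. M1 was the low array for both, by 2.26-fold and 2.23-fold, and the second UQCRH probe gave -1.26. The transcripts are near-identical, so probes for one may take up RNA of the other and the 2 values are not independent. CYC1, the cytochrome c1 heme subunit, lay at 0.17, and UQCRC1 and UQCRC2, the core proteins, at -0.04 and -0.62. UQCR11, the dimmest gene of the complex, was also the highest, at 0.60 (0.26 to 0.75 across the alternative processings). Its raw intensity was 139.3 on M1 and 146.8 on M0, so the positive value appears only after processing.

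Complex IV held no gene past 2-fold on M1. Its median of -0.15 lay 0.03 above that of all detected genes and turned to 0.38 with common-median scaling. COX4I1, the regulatory subunit, read 13.33, 13.18, 13.73 and 13.51, and its values stood within 0.55 of each other with M2a the highest. COX6A1 was the highest at 0.38 and COX6C the lowest at -0.76, the latter with 11.83, 11.07, 11.61 and 12.16. CYCS, the mobile cytochrome c, was detected on 1 array only (5.43, 4.47, 5.04 and 5.41), so no size is given for its difference.

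**Figure D3:**
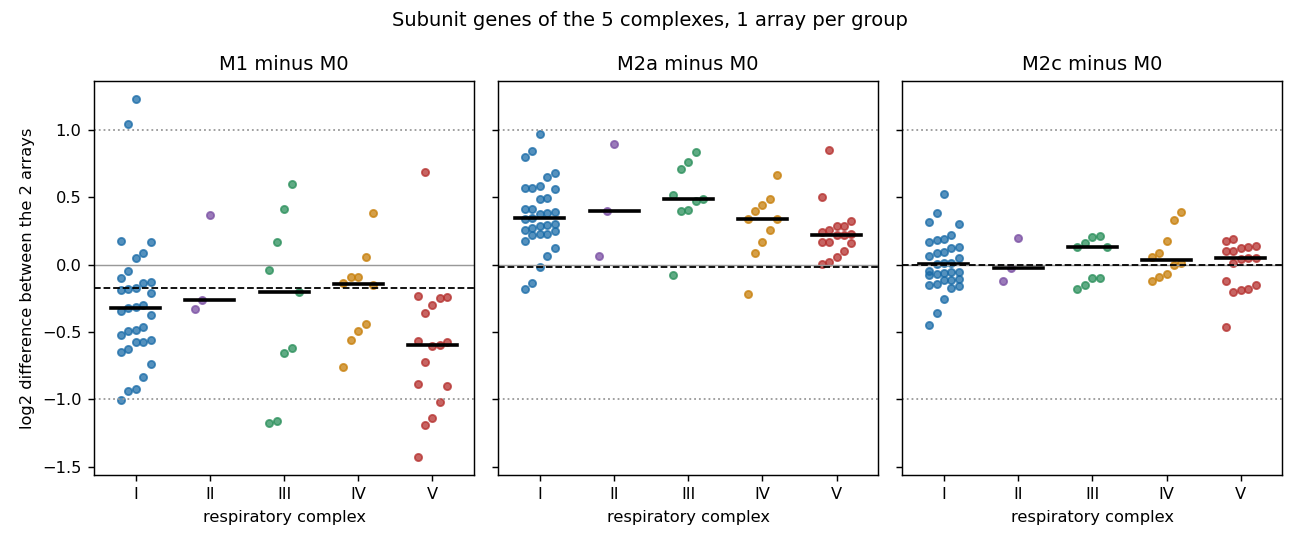
Log2 difference from M0 of each detected subunit gene (points) by complex, with the complex median (thick bar), the median of all detected genes (dashed line) and the 2-fold lines (dotted), for M1, M2a and M2c. On M1 complex V has the lowest median (-0.60; -0.23 with common-median scaling), on M2a all complex medians lie between 0.22 and 0.49, and on M2c between -0.03 and 0.13.

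Compared side by side, the complexes stood at M1-minus-M0 medians of -0.32 (I), -0.26 (II), -0.21 (III), -0.15 (IV) and -0.60 (V). With common-median scaling they stood at 0.06, 0.10, -0.06, 0.38 and -0.23, so the sign of complexes I, II and IV turned and that of III and V did not. Complex V was the lowest of the 5 under both, but not when a gene was read from the mean of its detected probes, where complex III stood at -0.535 and complex V at -0.533. It lay 0.43 below the median of all detected genes in the first case and 0.35 below it in the second. For genes of similar brightness, over the brightest 2079 detected genes, where 55 of the members lie, the median was -0.24 and, with common-median scaling, 0.20. With no replicate arrays the spread that such medians would show between samples was not tested.

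**Figure D4:**
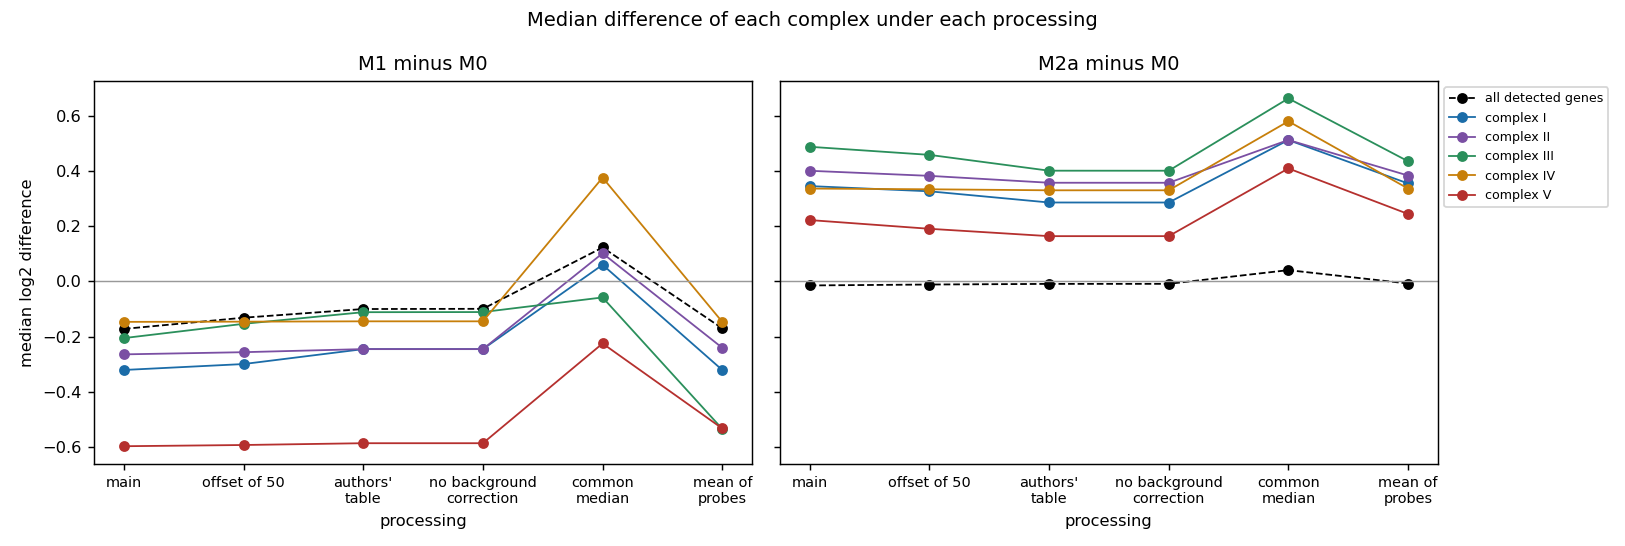
Median log2 difference of each complex and of all detected genes (dashed) for M1 minus M0 and M2a minus M0 under 6 processings of the same arrays. For M1 complex V is the lowest line in 5 of them and level with complex III (-0.533 and -0.535) for the mean of detected probes, while the sign of complexes I, II and IV turns with common-median scaling; for M2a all complexes lie above all detected genes in every processing.

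The M2a comparison asks how interleukin-4 macrophages differ from unpolarised ones. The members lay slightly but broadly above M0: 69 of 75 detected members (92.0%) were above 0, against 48.8% of all detected genes. None of the 74 that could be called passed 2-fold in either direction, where 4.09% of 9860 genes were higher and 5.04% lower. At the 1.5-fold line 11 were higher and 0 lower, against 12.0% and 16.2% of all genes, so the higher share was near the background and the lower share was not. The median of the members was 0.33, beside -0.01 for all detected genes, and 0.51 beside 0.04 with common-median scaling. Over the brightest 2079 detected genes, where 55 of the members lie, the M2a-minus-M0 median was -0.02. With common-median scaling that median was 0.18, so the members then lay less far above these bright genes than above all detected genes.

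All 5 complexes had a positive median on M2a, at 0.35 (I), 0.40 (II), 0.49 (III), 0.34 (IV) and 0.22 (V). NDUFA13, a complex I accessory subunit also known as GRIM-19, read 9.95 on M0, 10.12 on M1, 10.91 on M2a and 10.04 on M2c and stood highest at 0.97. M2a alone was high for it, and its difference ranged from 0.91 to 1.13 across alternatives. With common-median scaling 2 members, NDUFA13 and SDHC, passed 2-fold, where 457 of all 10395 detected genes were higher and 498 lower. The next highest were SDHC at 0.89, ATP5MJ, a small membrane subunit of complex V, at 0.85, NDUFA9 also at 0.85, UQCR10 at 0.83, NDUFV3 at 0.80 and UQCRC1 at 0.76. The 3 probes of UQCR10 ran from 0.17 to 0.83, so its rank rests on the highest of them. The 2 probes of SDHC gave 0.89 and 0.33, so its rank rests on the higher of them.

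The peripheral stalk, lowest on M1, was also the group nearest to M0 on M2a, with a median of 0.04 and 0.00 for ATP5PO. Across the alternative processings ATP5PO ran from 0.00 to 0.25 and ATP5PB from 0.06 to 0.34. ATP5PD ran from 0.01 to 0.28 and ATP5PF from 0.16 to 0.38, so how near the stalk lay to M0 depended on the processing. All 17 genes of complex V lay above 0 on M2a, within 0.00 to 0.85. The genes below M0 were CYCS, for which no size is given, COX6C (-0.22), NDUFS4 (-0.18), NDUFA12 (-0.14), UQCRHL (-0.08) and NDUFA2 (-0.02). Of the 19 members with more than 1 detected probe, all probes had the same sign in 17 on M2a and in 13 on M1.

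In M2c macrophages the members stayed near M0. None passed 2-fold, where 0.677% of 9604 genes were higher and 0.448% lower. The median was 0.01, with 41 of 75 above 0 and a range from -0.46 in ATP5F1D to 0.53 in NDUFB3. The second probe of ATP5F1D gave 0.26, so that low end rests on 1 of 2 probes. No member passed the 1.5-fold line, where 3.54% of all genes were higher and 3.38% lower. The quartiles of all detected genes in the same pair of arrays, -0.19 and 0.18, show that these arrays differed little in general.

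The comparison of M1 with M2a does not use the M0 array and gave the largest number of called members. Of 74, 17 were lower on M1 and 0 higher, against 18.0% and 15.7% of 9791 genes, so the lower share is near that of all genes and the higher share is not. At the 1.5-fold line 45 were lower and 1 higher, against 32.7% and 24.6%. The median was -0.70, beside -0.16 for all detected genes, and 5 of 75 members were above 0. The 17 comprised 7 genes of complex I (NDUFB2, NDUFB6, NDUFB10, NDUFC2, NDUFS5, NDUFS8 and NDUFV3), 4 of complex III (UQCRC2, UQCRH, UQCRHL and UQCRQ) and 6 of complex V (ATP5F1D, ATP5MC1, ATP5ME, ATP5MJ, ATP5PB and ATP5PO). Among those not yet described, NDUFB10 of the distal membrane arm read 10.93, 10.09, 11.22 and 11.10, and NDUFB2 of the same arm 11.79, 10.86, 12.01 and 11.63. NDUFS5, an accessory subunit, read 11.09, 10.16, 11.34 and 11.22, and UQCRQ, a small subunit of complex III, 12.59, 11.94, 13.00 and 12.49. M1 was the lowest and M2a the highest array for each of these 4 genes. NDUFC2 was not detected on M1 and was at least 1.27-fold lower there than on M2a. UQCRH was lowest, at -1.57 (2.97-fold), followed by ATP5PB at -1.49 and NDUFV3 at -1.45. NDUFV3 ranged from -1.16 to -0.74 across the alternative processings and did not pass 2-fold in the authors' normalized table. With common-median scaling 7 were lower, namely UQCRH, ATP5PB, ATP5F1D, ATP5MC1, ATP5MJ, NDUFB6 and NDUFV3. The share of all genes called at that scaling is not given here, so the 7 are not set against a background. The second probe of ATP5MC1 read higher on M1 than on M2a, so the direction of that gene depends on the probe here too. For ATP5F1D the second probe was lower on M1 but short of 2-fold. The member median of -0.48 with common-median scaling kept its sign where that of all detected genes turned to 0.09.

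Against M2c, M1 was lower in 9 members and higher in 1 (NDUFA9), beside 21.4% and 16.3% of 9676 genes. With common-median scaling 1 was lower (NDUFB6) and 3 higher, and the authors' normalized table gave 5 lower and 1 higher. COX6C, at -1.09, was the sole complex IV gene past 2-fold in any pair of arrays. M2a against M2c gave 1 called member, NDUFV3, a complex I accessory subunit, higher by 2.37-fold and none lower, where 4.81% of 9607 genes were higher and 6.98% lower. No member passed 2-fold for this pair in the authors' normalized table, without background correction or with an offset of 50, and 5 were higher with common-median scaling. NDUFV3 read 6.41, 5.76, 7.20 and 5.96, with M2a the highest and M1 the lowest. The shares of all genes given here are not those of the alternative processings, so the counts under those have no background beside them. These pairs share arrays with the comparisons above and are not independent of them.

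A family of paralogues stands beside the members. COXFA4, formerly NDUFA4 and now counted as a subunit of complex IV, is not matched by the letters and read 12.99, 12.52, 13.18 and 12.96, a difference of -0.47 on M1 that turned to 0.13 with common-median scaling. COXFA4L3, its paralogue encoded by C15orf48, read 4.78, 10.42, 4.70 and 4.81 and was detected on M1 alone. It was at least 35.5-fold higher on M1 than on M0, counted against the lowest detected signal of the M0 array, and this bound ran from 11.7-fold without background correction to 47.3-fold with common-median scaling. A second probe of the same transcript was also detected on M1 alone, at 6.69, and the remaining probe, for another transcript, on no array. COXFA4L2, the hypoxia-induced paralogue, was not detected.

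The COXFA4L3 transcript is known to carry the hairpin of miR-147b, a microRNA with COXFA4 among its described targets. Its mature sequence is shown because it lies within COXFA4L3 in RefSeq, at chr15:45433098-45433118 of GRCh38.p14 (plus strand), with the seed (bases 2 to 8) in capitals. The microRNA itself was not measured on these arrays.
hsa-miR-147b-3p: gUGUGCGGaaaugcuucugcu

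Around the complexes, the machinery that builds and supplies them was read from lists of genes. On M1, assembly factors of complex III had 3 of 6 genes lower, LYRM7, BCS1L and TTC19, and a median of -0.97 (2 lower and -0.71 with common-median scaling). The shares of all genes that were lower and higher on M1, 19.0% and 15%, are the background for this and the following lists. With common-median scaling 1236 of 10395 detected genes were lower on M1 and 1960 higher. BCS1L, which inserts the Rieske protein, read 7.16, 5.92, 7.63 and 7.18. LYRM7, a chaperone of that protein, was not detected on M1 and was at least 3.29-fold lower than on M0. Assembly factors of complex IV had 2 of 20 lower, COX20 (-1.74) and COA5 (-1.44), those of complex I 1 of 15, NDUFAF2 (-1.07), and those of complex V 0 of 4, all below the 19.0% of all genes. In complex II, SDHAF4 was higher (1.16) and SDHAF3 lower by at least 2.29-fold.

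Mitochondrial ribosomal proteins, which serve the subunits encoded in mitochondrial DNA, had 11 of 78 genes lower and 4 higher on M1, both shares below those of all genes, and 7 lower and 8 higher with common-median scaling. The median was -0.30, and -0.12 with common-median scaling. MRPL3 was the lowest (-1.63) and MRPL44 the highest (1.77). On M2a none passed 2-fold, 58 of 78 lay above 0 and the median was 0.20. Genes of the TCA cycle and pyruvate dehydrogenase had medians of -0.22 on M1, which turned to 0.14 with common-median scaling, and 0.08 on M2a. SUCLA2 of succinyl-CoA ligase was the 1 of 16 that was lower on M1 (-1.43).

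Among enzymes of coenzyme Q synthesis and other donors of electrons to it, 4 of 15 were lower on M1 and 1 higher, against 19.0% and 15% of all genes, and 2 lower and 1 higher with common-median scaling. GPD2, the mitochondrial glycerol-3-phosphate dehydrogenase, rose from 5.99 on M0 to 8.53 on M1, with 6.06 on M2a and 6.39 on M2c, a 2.54 log2 difference that ranged from 1.61 to 2.65 across alternatives. NNT, the transhydrogenase that makes NADPH in the matrix, fell by 1.70, COQ8A by 1.39 and COQ2 by 1.20 on the log2 scale. Carriers and porins had 3 of 11 lower, with VDAC3 lowest at -1.45, and none of the 11 above 0 on M1, though 2 were with common-median scaling.

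Regulators of mitochondrial genes had 3 of 15 lower on M1, a share near the 19.0% of all genes, and none higher, which became 2 lower and 1 higher with common-median scaling. MYC fell by 1.38 and TFB2M, a mitochondrial transcription factor, by 1.25, and GABPA, not detected on M1, was at least 1.32-fold lower. TFAM, which packages mitochondrial DNA, had raw intensities of 371.4, 170.3, 259.7 and 494.6 and lay short of the 2-fold line on M1 at -0.94. NRF1 and PPARGC1A were not detected on any array. In glycolysis HK2 (1.94) and PFKFB3 (1.35) were higher on M1 and LDHB (-1.17) lower, of 21 genes, against 15% and 19.0% of all genes. With common-median scaling 3 were higher and 0 lower. The median turned from -0.07 to 0.38, beside 0.12 for all detected genes. HK3 (2.57), PFKP (1.84) and PFKFB4 (1.31) were higher on M2a, where 4.09% of all genes were.

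**Figure D5:**
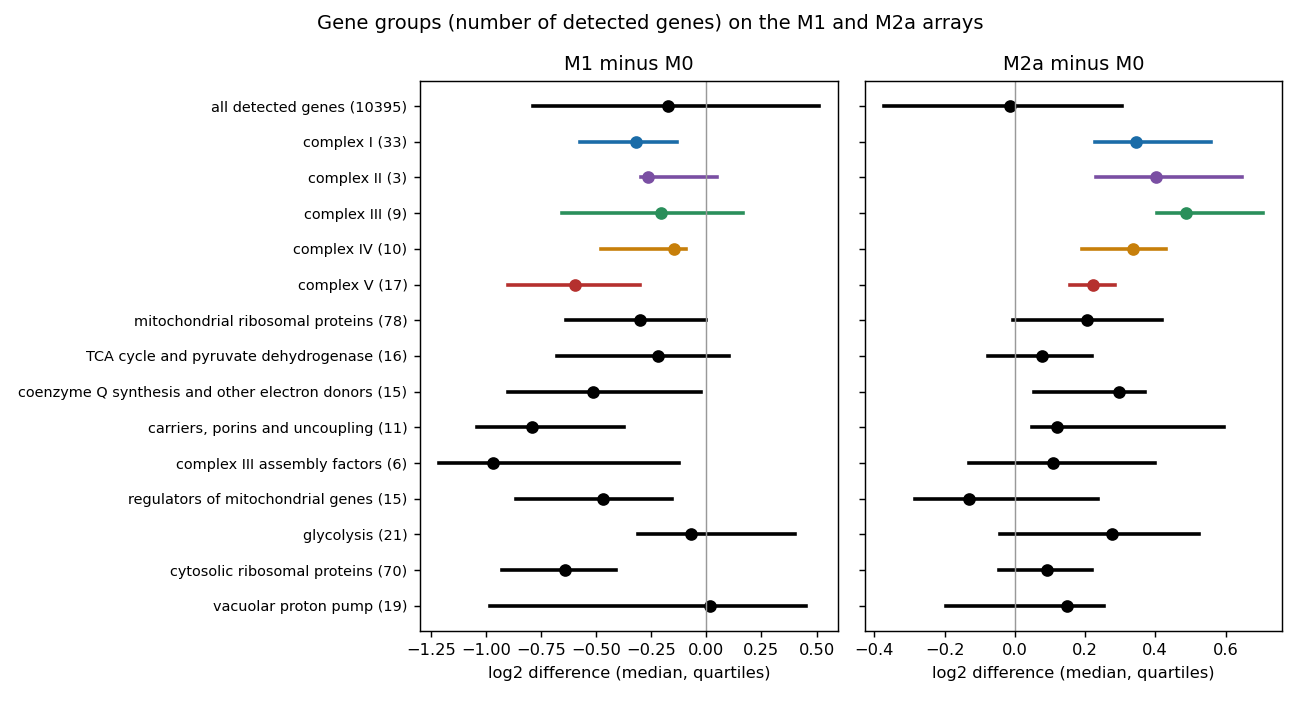
Median and quartiles of the log2 difference of each gene group (number of detected genes in brackets) for M1 minus M0 and M2a minus M0. On M1 assembly factors of complex III (-0.97), carriers (-0.79) and cytosolic ribosomal proteins (-0.64) lie as low as complex V (-0.60) or lower, and on M2a complexes I to IV (0.34 to 0.49) lie above the other groups shown; with common-median scaling these become -0.71, -0.21, -0.13 and -0.23 on M1, and 0.51 to 0.66 for complexes I to IV on M2a.

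Set beside these groups, the M1 median of complex V was not the lowest, since assembly factors of complex III stood at -0.97, carriers and porins at -0.79 and cytosolic ribosomal proteins at -0.64. With common-median scaling complex V stood at -0.23, below carriers (-0.21) and cytosolic ribosomal proteins (-0.13) and above assembly factors of complex III (-0.71), coenzyme Q synthesis and other donors (-0.35) and regulators (-0.25). On M2a the medians of complexes I to IV, 0.34 to 0.49, lay above the 0.20 of mitochondrial ribosomal proteins, the 0.28 of glycolysis and the 0.30 of coenzyme Q synthesis and other donors. These are descriptions of 1 pair of arrays each, and no difference between groups of genes was tested.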

How the data were processed

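Total RNA of 4 THP-1 macrophage groups was hybridised to Illumina BeadChips, 1 array per group. The authors deposited non-normalized and normalized intensities with detection p-values for 47228 probes, made with GenomeStudio, per the submitters' processing notes. Rank by rank, the deposited normalized intensities differed by at most 0.437% from the non-normalized intensities averaged over the arrays, as quantile normalization gives. All values here came from the non-normalized table. It was background-corrected by normexp from the detection p-values (offset 16), quantile-normalized and taken to log2 with neqc of limma 3.58.1 in R 4.3.3. Symbols came from the platform annotation: 30111 probes carried 1 symbol, 8 several and 17109 none, and the Entrez IDs of 30072 matched RefSeq. The brightest probe by mean of the 4 arrays stood for a gene. A gene detected on 1 of 2 arrays only has a bound, taken against the lowest detected signal of the other array.

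Named genes were members past 2-fold in any pair of arrays, the extremes of each complex, complex II, CYCS, isoform and paralogue pairs, members with detected probes over 1 log2 unit apart, and at most 4 non-members per list. LDHB, PFKFB4, RPL7L1, RPS7, TFAM, NRF1, PPARGC1A, UQCRC1, UQCRC2, CYC1, ATP5F1A, the remaining complex V and stalk genes and the members listed by rank on M2a were named outside that rule, after their values were seen. The members and the 15 lists were chosen with earlier results of these data known, and the promoter motifs, the groups within complexes and the 1.5-fold line after the values were seen. The precision is limited by the 4 arrays, with no replicate. Alternatives covered the background, offset, scaling, detection limit and choice of probe. Scripts were tested on simulated data.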

Additional observations from a re-analysis of the deposited data

How the results depend on the processing

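A median counted as the same where it kept its sign and moved by under 0.25, or lay within 0.1 of 0 both times, and a count where it stayed within 1.5 times. By these limits, across the alternatives for 6 pairs of arrays, 259 of the counts and medians stayed the same, 25 moved and 6 turned sign. A further 6 medians, all M2c minus M0, crossed 0 within 0.1 of it, to values from -0.050 to 0.029. With common-median scaling, on M1 minus M0 the member median became 0.021, complexes I, II and IV 0.060, 0.10 and 0.38, complex V -0.23 and the lower count 0, on M2a minus M0 the higher count became 2, and on M1 minus M2a the lower count 7. The count higher on M1 than M0 was 1 in the authors' normalized table, without background correction, with an offset of 50 and with detection required on both arrays. The mean of detected probes gave 4 lower, -0.53 for complex III on M1 and -0.0043 for it on M2c, and counting every probe gave -0.049 for the latter and 1 member higher in M1 than M2a. The 1.5-fold line, chosen after seeing the data, gave 4 higher and 21 lower on M1, 11 higher on M2a, and 1 higher and 45 lower for M1 against M2a. For M1 against M2c, run after seeing the data, 5 were lower in the authors' table and without background correction, common-median scaling gave 1 lower and 3 higher, and counting every probe 2 higher. For M2a against M2c the higher count was 5 with common-median scaling and 0 with an offset of 50, without background correction and in the authors' table. The counts of members in this section stand without the share of all genes under the same processing. Of the differences of named members, 81 stayed the same, 23 moved by 0.25 or more and 0 turned sign, and all 8 of COXFA4L3 moved. Common-median scaling multiplies each array by a single factor, and which scaling is right was not tested. No paired analysis was possible because each group has 1 array. Leaving out M1 before normalization left the M2a and M2c results the same by these limits, though the M2c median of complex I went from 0.0058 to -0.022.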

Other observations

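Cytosolic ribosomal proteins, which make up the ribosomes that translate nuclear genes for the subunits, had 17 of 70 detected genes lower on M1 than on M0 and 1 higher, against 19.0% and 15% of all genes. With common-median scaling 4 were lower and 2 higher, beside 1236 and 1960 of all 10395 detected genes. RPL22 read 10.70 on M0, 7.84 on M1, 9.99 on M2a and 10.53 on M2c, the lowest difference at -2.86. RPS23 followed at -2.49 and RPL7 at -1.84, and RPL7L1, a paralogue of RPL7, was the higher one at 1.12. Many of these genes have near-identical pseudogenes, so a probe may take up more than 1 transcript. On M2a the median was 0.09 and RPS7 was higher by 1.19.

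The vacuolar proton pump, a rotary ATPase of lysosomes built like complex V, runs in the opposite direction. On M1 5 of its 19 genes were lower and 1 higher, against 19.0% and 15% of all genes, with a median of 0.02. With common-median scaling 2 were lower and 7 higher, with a median of 0.41. Of all 10395 detected genes 1236 were then lower and 1960 higher, with a median of 0.12. ATP6V1H, a subunit of the pump's cytosolic part, read 9.08, 10.66, 9.95 and 9.37 and was higher by 1.59. ATP6AP2 was lower, at -1.53, and ATP6V0D2, not detected on M1, was at least 3.01-fold lower.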
